A study of Mus musculus with 16 samples.

Results

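B cell genes were followed in subcutaneous PDA30364 tumors of mice treated with gemcitabine (GEM) and an agonist anti-CD40 Ab. The set held 9 of the 18193 genes named on the array, which were Ighm, the constant region of the immunoglobulin mu heavy chain, and Cd79a, Cd79b, Ms4a1, Cd22, Cr2, Blnk, Pax5 and Pou2af1. Members were the probe sets annotated to one of these genes alone, and a probe set is a group of oligonucleotides on the array that is summarised as 1 value. This gave 22 of the 45037 probe sets tested. All 11 probe sets of Ighm are described because they did not behave alike, and each other gene is described by the probe set with the highest mean over the 16 arrays, which makes 19. The 3 dimmer probe sets of Ms4a1, Pax5 and Cd22, and 4 that list Ighm together with other genes, were not used.

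The tumors came from C57BL/6-Ly5.1 mice of 6 to 12 weeks of age that carried PDA30364 cells in the flank. PDA30364 is a line from 1 primary pancreatic tumor of an Elas-tTA/TetO-Cre mouse, in which Cre is under tetracycline control through an elastase promoter, and this origin is shared by the tumor cells of all 4 groups. Control mice received vehicle and control IgG, anti-CD40 Ab mice received vehicle and a chimeric CD40 antibody with a mouse IgG1 constant region, GEM mice received GEM and control IgG, and GEM/anti-CD40 Ab mice received GEM and the CD40 antibody. The dose of GEM was 120 mg/kg, given on day 1, day 5 and day 12 of treatment, and the antibody followed on day 3, day 4, day 6 and day 14, and tumors were taken on day 22 or 23 after inoculation. RNA of 4 whole tumor samples per group was measured on Affymetrix mouse arrays, and values are log2 intensities after robust multi-array averaging (RMA). In such bulk RNA, fewer B cells and less RNA per B cell cannot be told apart. The number of arrays per group limits the precision of every value.

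B cells recognise antigen through a membrane immunoglobulin whose heavy chain, before class switching, is encoded by Ighm. This membrane IgM has only a very short cytoplasmic tail and signals through the Cd79a and Cd79b proteins. CD40 is a receptor on B cells, dendritic cells and macrophages, and on B cells its engagement provides the help of T cells that drives activation, class switching and plasma cell formation.

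In every tumor 8 epithelial tumor genes averaged 11.72 to 12.51 on the log2 scale. This shows epithelial tissue on each array but cannot tell one label from another. Genes of skin keratinocytes averaged 8.03 in control replicate 2 and 6.48 in anti-CD40 Ab replicate 2, and genes of skeletal muscle averaged 12.4 in GEM/anti-CD40 Ab replicate 4. These are the 3 arrays with skin or muscle genes that are left out below. Muscle genes were not confined to them, with averages of 7.76 in GEM replicate 4 and up to 7.43 in control. Leaving out the 3 arrays therefore does not remove all muscle signal. GEM replicate 3 and GEM replicate 4 carry the same number in their titles, so that the labels give 3 distinct numbers for the GEM group and an n of 4 for GEM counts samples that may not be 4 mice. Their values differed at 43831 probe sets and they were as alike as other GEM arrays (r = 0.9948, against 0.994 to 0.9966 between GEM arrays), so both were kept.

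How many B cell genes lay near the background of the array depended on the level used. The background level was set at 5.85 on the log2 scale, the 90th percentile of the brightest probe sets of 35 genes that belong to tissues not sampled, and Gkn1, which is bright in these tumors, was among those 35. Of the 19 member probe sets, 14 had a mean over the 16 arrays at or under this level. They were 8 of the 11 probe sets of Ighm and 6 of the 8 other genes, namely Cd79a, Cd79b, Ms4a1, Cr2, Pax5 and Pou2af1. Above it were Cd22, Blnk and the Ighm probe sets 1427351_s_at, 1427870_x_at and 1427329_a_at. With the 75th percentile of the same genes (5.05) as the level, 12 were near background, and Pax5 and Ighm 1425247_a_at moved above it. With their median (4.09), a level added after the data were seen, 7 were near background, namely 5 of the 11 probe sets of Ighm together with Cr2 and Pou2af1, while Cd79a, Cd79b and Ms4a1 lay above it. In what follows the background level is 5.85. A probe set near background gives no evidence that the gene is silent, only that its signal could not be set apart from that of genes not used by the tissue.

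The antigen receptor's signalling chains and the surface markers that define B cells overlapped between all groups. Cd79a measured 4.77, 4.98, 5.05 and 4.83 in the control tumors, 4.92, 4.80, 4.93 and 4.69 after anti-CD40 Ab, 4.78, 5.10, 5.00 and 4.70 after GEM and 4.70, 5.05, 4.79 and 4.60 after GEM/anti-CD40 Ab. The 4 groups overlapped throughout, and every value was below the background level. Cd79b ranged from 4.38 to 4.99 in control, 4.37 to 5.04 after anti-CD40 Ab, 4.49 to 5.05 after GEM and 4.60 to 5.30 after GEM/anti-CD40 Ab. Ms4a1, which encodes the CD20 antigen, ranged from 4.17 to 4.38, 4.11 to 4.64, 4.06 to 4.44 and 4.13 to 4.92 in the same order. For both genes the highest of all 16 values was that of GEM/anti-CD40 Ab replicate 1. Cr2, the complement receptor of the B cell coreceptor, lay between 3.38 and 3.77 in all 16 tumors.

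The transcription factors were likewise near background. Pax5, which keeps cells committed to the B lineage, measured 5.23, 5.40, 5.50 and 5.23 in control, 5.58, 5.27, 5.19 and 5.24 after anti-CD40 Ab, 5.46, 5.35, 5.11 and 5.18 after GEM and 5.16, 5.32, 5.32 and 5.34 after GEM/anti-CD40 Ab. Its group means lay within 5.275 and 5.34, closer together than the 4 replicates of any group. Pou2af1, a coactivator that works with octamer-binding factors and is needed for germinal centers, lay between 2.76 and 3.40.

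**Figure D1:**
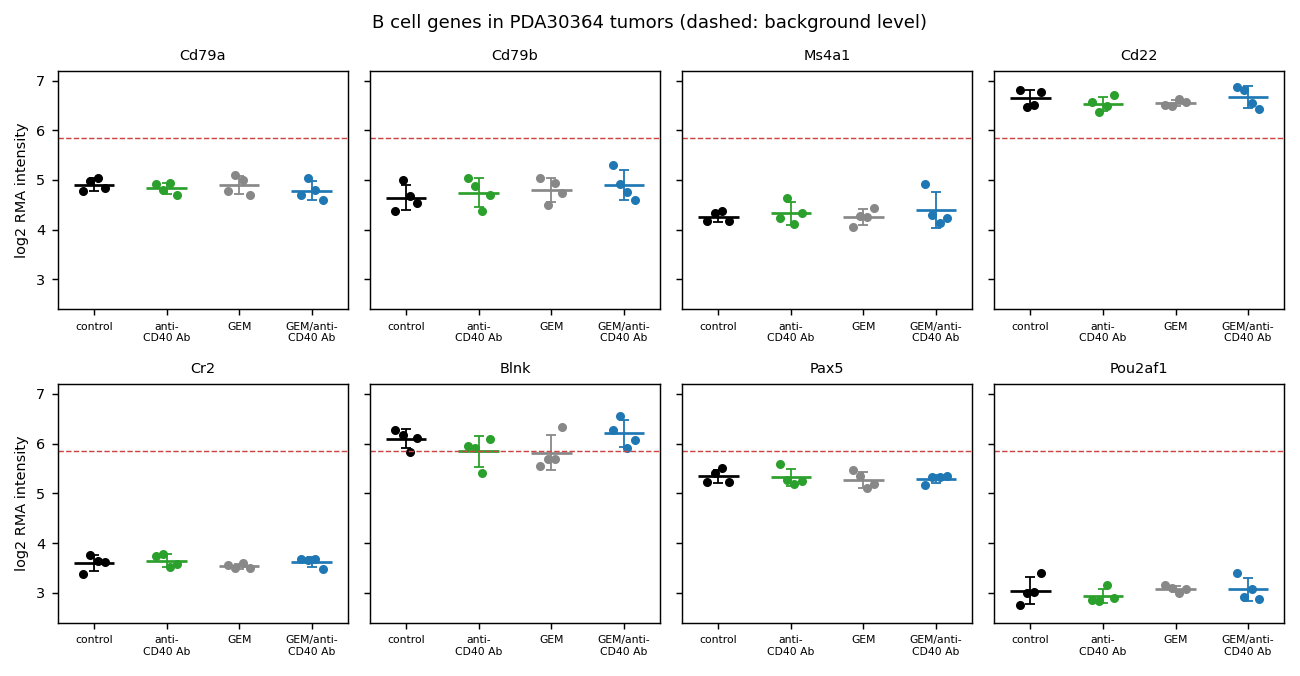
Log2 RMA intensity (y axis) of the 8 B cell genes other than Ighm in the 4 treatment groups (x axis), 1 point per tumor, with the mean as a line and the SD as error bars (n = 4), and the background level of 5.85 as a dashed line. Cd22 and Blnk sit above or around the dashed line, the 6 other genes sit below it, and the groups overlap in every panel.

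The genes above background beside Ighm were an inhibitory receptor and an adaptor. Cd22, which encodes a sialic acid binding receptor that dampens antigen receptor signals, measured 6.81, 6.47, 6.51 and 6.77 in control, 6.57, 6.37, 6.49 and 6.70 after anti-CD40 Ab, 6.51, 6.49, 6.62 and 6.57 after GEM and 6.88, 6.82, 6.54 and 6.43 after GEM/anti-CD40 Ab. All groups overlapped. Blnk, an adaptor that links the kinase Syk to downstream enzymes and that macrophages also express, measured 6.27, 6.18, 5.83 and 6.12 in control, 5.96, 5.92, 5.40 and 6.10 after anti-CD40 Ab, 5.55, 5.69, 5.69 and 6.34 after GEM and 6.28, 6.55, 5.91 and 6.08 after GEM/anti-CD40 Ab. The single-agent groups reached lower values than the other groups, but each group overlapped with every other. In the GEM group 3 of 4 Blnk values were below the background level.

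Promoters of these 2 genes are shown because they were the members outside Ighm with a mean above background, and because Pou2af1 acts at the octamer, written ATGCAAAT on one strand and ATTTGCAT on the other. RefSeq promoters of assembly GRCm38.p6, 250 bases before to 50 bases after the start, were at hand for 6 of the 9 members. The octamer is in capitals where a search of both strands found it.
Blnk, chr19:40994172-40994471, minus strand: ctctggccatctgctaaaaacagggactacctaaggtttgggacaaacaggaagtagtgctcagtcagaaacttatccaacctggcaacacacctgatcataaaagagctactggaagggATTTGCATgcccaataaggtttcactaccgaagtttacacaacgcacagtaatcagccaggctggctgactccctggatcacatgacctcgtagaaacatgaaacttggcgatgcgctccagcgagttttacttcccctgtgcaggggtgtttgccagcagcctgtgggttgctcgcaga
Cd22, chr7:30878979-30879278, minus strand: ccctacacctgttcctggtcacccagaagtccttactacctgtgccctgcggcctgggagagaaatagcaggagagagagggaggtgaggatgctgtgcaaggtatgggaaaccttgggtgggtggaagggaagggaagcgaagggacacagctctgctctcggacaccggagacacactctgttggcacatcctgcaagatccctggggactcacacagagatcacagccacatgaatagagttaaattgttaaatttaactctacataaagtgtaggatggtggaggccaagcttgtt

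The octamer occurred in the Blnk promoter, in reverse orientation from position -130 relative to the start, and not in these windows of Cd22, Cd79a, Cr2, Pax5 and Pou2af1. It was present in 570 of 32851 mouse promoters of the same length (1.74%). A match is a description of the letters, and the search says nothing about the binding of any factor.

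The 11 Ighm probe sets fell into 3 kinds. A pair, 1427351_s_at and 1427329_a_at, had means above background over the 16 arrays and varied together from tumor to tumor (r = 0.94 over 16 arrays). The dim probe set 1425385_a_at had its 3 highest values in the anti-CD40 Ab group. The 8 others varied little, with log2 changes between -0.1625 and 0.125 over all 5 comparisons of groups. The pairs whose correlations are given were chosen after their values were seen, and all arrays of a group share their treatment, so that these are descriptions without a test.

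Ighm 1427351_s_at measured 7.15, 7.21, 6.94 and 7.36 in the control tumors, 7.22, 6.55, 6.79 and 7.18 after anti-CD40 Ab, 6.81, 6.45, 6.74 and 7.13 after GEM and 8.19, 7.28, 6.27 and 7.22 after GEM/anti-CD40 Ab. The combination group held both the highest and the lowest of the 16 values, and its SD of 0.78 around a mean of 7.24 was larger than the SD of 0.17 in control, 0.32 after anti-CD40 Ab and 0.28 after GEM (n = 4 each). Ighm 1427329_a_at measured 6.18, 5.97, 5.93 and 6.58 in control, 6.01, 5.68, 5.56 and 5.99 after anti-CD40 Ab, 5.62, 5.23, 5.75 and 5.92 after GEM and 7.34, 6.25, 5.46 and 6.12 after GEM/anti-CD40 Ab. Again GEM/anti-CD40 Ab replicate 1 was highest, and each GEM tumor lay below each control tumor. Although its mean over all arrays was above the background level, 3 of the 4 GEM tumors and 2 of the 4 anti-CD40 Ab tumors lay below it, as did the means of these groups (5.63 and 5.81). Without GEM/anti-CD40 Ab replicate 1 the correlation of the pair was 0.89.

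Ighm 1425385_a_at measured 3.47, 3.38, 3.60 and 3.55 in control and 4.02, 4.69, 4.98 and 4.34 after anti-CD40 Ab. After GEM it measured 3.29, 3.39, 3.49 and 3.42, and after GEM/anti-CD40 Ab 4.21, 3.52, 3.54 and 3.53. All 4 tumors treated with anti-CD40 Ab alone lay above all control and GEM tumors, and of the combination only replicate 1 reached their range. Every one of these values was below the background level of 5.85. Its correlation with 1427351_s_at over the 16 tumors was 0.05.

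Among the remaining Ighm probe sets, 1427870_x_at lay above background with group means between 6.495 and 6.595. Ighm 1427756_x_at had 4.28, 4.29, 4.28 and 4.29 in the GEM tumors and 4.13, 4.06, 4.16 and 4.18 after GEM/anti-CD40 Ab, so that these groups did not overlap, while control tumors spanned 4.13 to 4.41. The other 6 had group means between 3.50 and 5.37. Probe sets that end in x_at or s_at can bind related transcripts, and immunoglobulin genes are closely related, so their values are uncertain as a measure of Ighm alone. The region of Ighm that each probe set targets is not given in the sources used here.

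**Figure D2:**
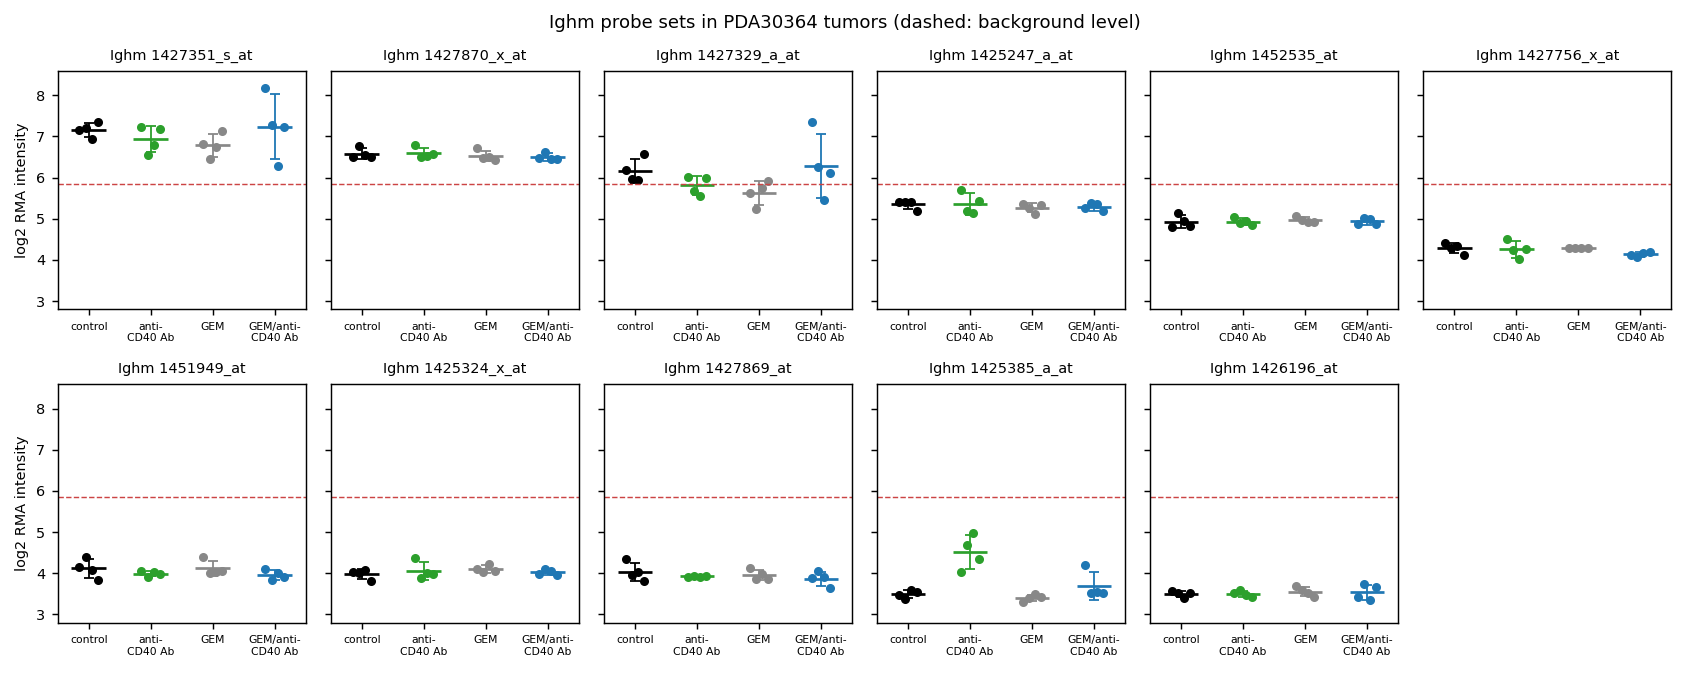
Log2 RMA intensity (y axis) of the 11 Ighm probe sets in the 4 treatment groups (x axis), 1 point per tumor, with the mean as a line and the SD as error bars (n = 4), and the background level of 5.85 as a dashed line. In 1425385_a_at the 4 anti-CD40 Ab tumors (4.02 to 4.98) sit above the 4 control tumors (3.38 to 3.60), and in 1427351_s_at and 1427329_a_at 1 tumor of the combination stands highest.

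No member passed the test in any comparison. The test was limma's moderated test on the 8 arrays of each pair of groups, with p-values adjusted by Benjamini-Hochberg over all 45037 probe sets and a threshold of 0.05. The question was how each agent and the combination changed the tumor. The comparisons that use the same group share its arrays and are not independent.

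For anti-CD40 Ab against control, 0 of 19 members passed, beside 0% of all probe sets, and 1 of 19 had an unadjusted p under 0.05, beside 6.08%. That one was Ighm 1425385_a_at, with a log2 change of 1.01 (SE 0.18, 95% interval 0.60 to 1.41, limma adjusted p = 0.680). It was the only member whose groups did not overlap, with the anti-CD40 Ab group higher, which 1.41% of all probe sets showed. The correlated pair had log2 changes of the opposite sign, -0.23 (SE 0.16) for 1427351_s_at and -0.355 (SE 0.16) for 1427329_a_at, with limma adjusted p-values of 0.847 and 0.807. The 8 other genes spanned log2 changes from -0.255 (Blnk) to 0.0975 (Cd79b). The median over the 19 members was -0.02, beside -0.01 over all probe sets.

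Leaving out single arrays kept the log2 change of Ighm 1425385_a_at between 0.85 (without anti-CD40 Ab replicate 3) and 1.17 (without anti-CD40 Ab replicate 1), with limma adjusted p-values from 0.301 to 0.986. Without the 3 tumors highest in keratinocyte or muscle genes it was 0.91, with a limma adjusted p of 0.421.

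For GEM against control, 0 of 19 members passed, beside 0% of all probe sets, and 2 had an unadjusted p under 0.05, beside 5.72%. Both were of the correlated Ighm pair. The log2 change was -0.38 (SE 0.14, 95% interval -0.70 to -0.065, limma adjusted p = 0.831) for 1427351_s_at and -0.535 (SE 0.175, 95% interval -0.93 to -0.14, limma adjusted p = 0.786) for 1427329_a_at. For the latter the GEM tumors lay below the control tumors without overlap, which 1.63% of all probe sets showed, and 3 of these 4 GEM values were below background. With GEM replicates 3 and 4 averaged as 1 sample the log2 changes of the pair were -0.43 and -0.60, both with a limma adjusted p of 0.966. The dim 1425385_a_at differed by -0.10 (SE 0.07). Blnk differed by -0.28 (SE 0.17) and Cd22 by -0.09 (SE 0.09), while Cd79a, whose interval ran from -0.25 to 0.22, differed by -0.01. The median over the 19 members was -0.06, beside -0.0025 over all probe sets.

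For GEM/anti-CD40 Ab against control, 0 of 19 members passed, beside 0.0178% of all probe sets (8 of 45037, all higher). None had an unadjusted p under 0.05 in limma's test, beside 9.58%, and none was free of overlap, beside 5.1% of all probe sets that were, in either direction. The correlated Ighm pair had the widest intervals, from -0.68 to 0.83 for 1427351_s_at and from -0.66 to 0.91 for 1427329_a_at around log2 changes of 0.075 and 0.13. These signs rested on 1 tumor, since without GEM/anti-CD40 Ab replicate 1 the log2 changes were -0.24 and -0.22. Among the 8 other genes the log2 changes ran from -0.12 to 0.24, the highest being Cd79b. The median over the 19 members was 0.025, beside -0.02 over all probe sets.

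For GEM/anti-CD40 Ab against GEM, 0 of 19 passed, beside 0% of all probe sets, and 1 had an unadjusted p under 0.05, beside 11.6%. It was Ighm 1427756_x_at, with a log2 change of -0.15 (SE 0.05, limma adjusted p = 0.327), lower without overlap as 3.31% of all probe sets were. The correlated pair had log2 changes of 0.46 (SE 0.34) and 0.66 (SE 0.34), and without GEM/anti-CD40 Ab replicate 1 these were 0.14 and 0.31. Ighm 1425385_a_at was higher without overlap, as were 2.85% of all probe sets, with a log2 change of 0.30 (SE 0.15, limma adjusted p = 0.485). Without replicate 1 of the combination it was 0.13. Blnk had a log2 change of 0.39 (SE 0.19, limma adjusted p = 0.477).

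For GEM/anti-CD40 Ab against anti-CD40 Ab, 0 of 19 passed, beside 0% of all probe sets, and 1 had an unadjusted p under 0.05, beside 4.6%. It was again Ighm 1425385_a_at, with a log2 change of -0.81 (SE 0.225, 95% interval -1.32 to -0.30, limma adjusted p = 0.937). The correlated pair had log2 changes of 0.305 (SE 0.35) and 0.48 (SE 0.33). Without GEM/anti-CD40 Ab replicate 1 the former was -0.01 and the latter 0.13. No member was free of overlap in this comparison, beside 2.63% of all probe sets.

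Whether the effect of anti-CD40 Ab depended on GEM was tested as an interaction over the 16 arrays, the change after anti-CD40 Ab in GEM-treated mice minus that in vehicle-treated mice. None of the 19 members passed in limma's test, beside 0% of all probe sets, and 3 had an unadjusted p under 0.05, beside 5.24%. The interaction was -0.705 (SE 0.25) on the log2 scale for Ighm 1425385_a_at, 1.02 (SE 0.41) for Ighm 1427329_a_at and 0.64 (SE 0.26) for Blnk, each with a limma adjusted p of 0.890. The 2 Ighm probe sets thus had interactions of opposite sign. Without GEM/anti-CD40 Ab replicate 1 the value of 1427329_a_at was 0.67 and that of 1425385_a_at -0.875.

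**Figure D3:**
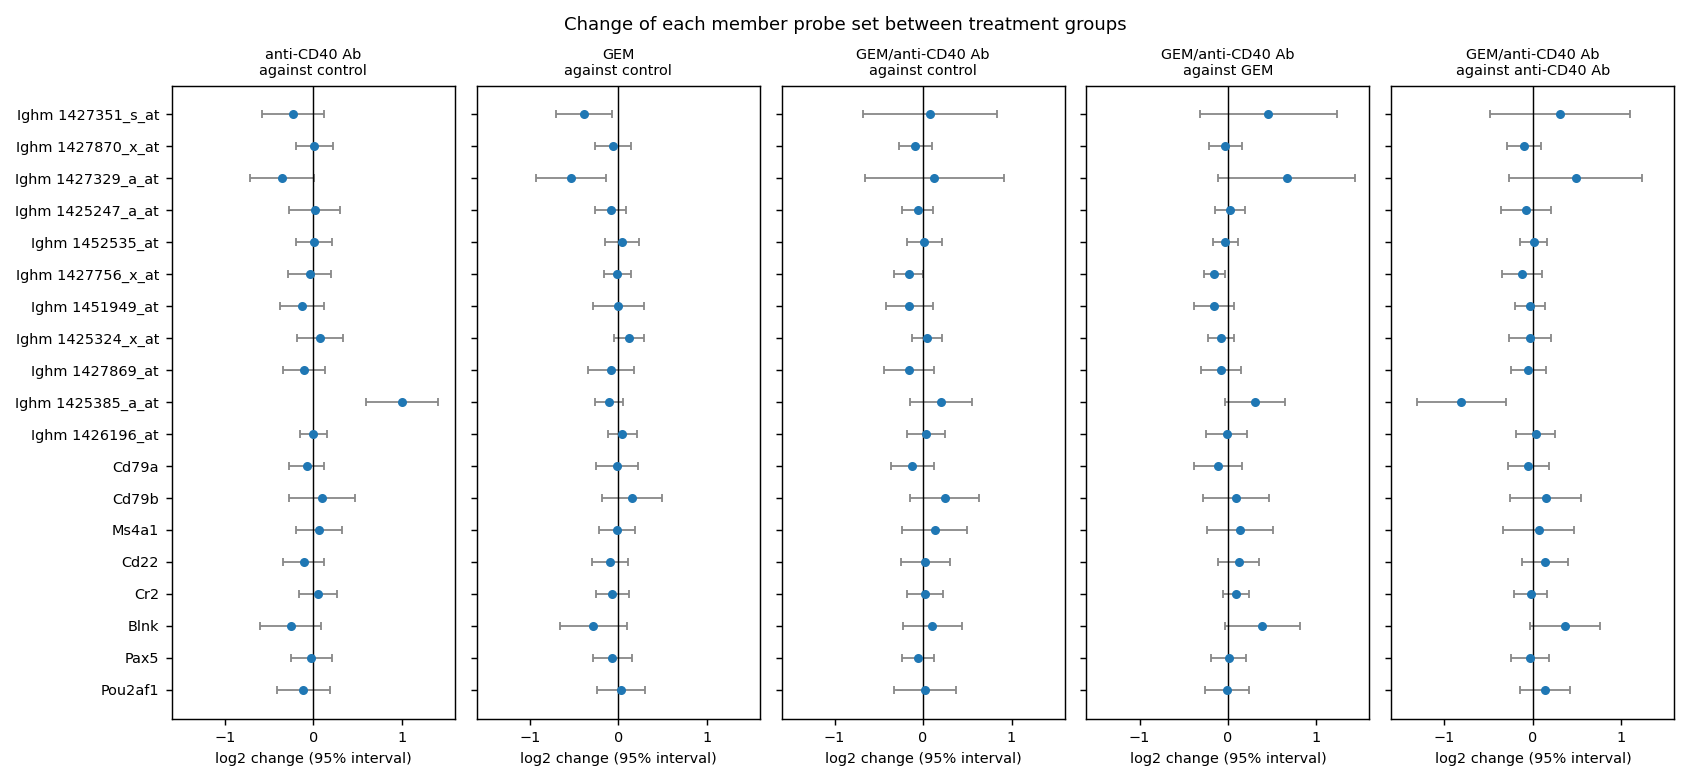
Log2 change (x axis) of each of the 19 member probe sets (y axis) in the 5 comparisons of treatment groups, with points for limma's estimate and bars for its 95% interval, not adjusted for the number of probe sets. Nearly all intervals span 0, and the estimate farthest from 0 is that of Ighm 1425385_a_at after anti-CD40 Ab (1.01).

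The dim Ighm probe set was set beside other genes of antibody-secreting cells. Jchain, which encodes the chain that joins IgM and IgA into polymers, lay near background and measured 3.28, 4.07, 3.49 and 3.41 in control and 3.78, 3.67, 5.57 and 4.16 after anti-CD40 Ab. It measured 3.56, 3.59, 3.67 and 3.41 after GEM and 4.90, 3.74, 3.37 and 3.59 after GEM/anti-CD40 Ab. The 2 highest tumors were anti-CD40 Ab replicate 3 and GEM/anti-CD40 Ab replicate 1, the same tumors in which 1425385_a_at was highest within its group. The log2 change after anti-CD40 Ab was 0.73 (SE 0.38, limma adjusted p = 0.820), and it rested on 1 tumor, since without anti-CD40 Ab replicate 3 it was 0.31 (SE 0.20, limma adjusted p = 0.994). The correlation with 1425385_a_at was 0.73 over 16 arrays. Both were highest in anti-CD40 Ab replicate 3, so this value may rest in part on that tumor.

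Igha, the heavy chain of IgA, separated the same 2 tumors from all others. Its probe set 1425763_x_at measured 7.89 in anti-CD40 Ab replicate 3 and 6.92 in GEM/anti-CD40 Ab replicate 1, with 4.61 to 5.42 in the other 14 tumors. The probe sets 1421653_a_at (7.61 and 6.52) and 1429381_x_at (7.31 and 6.58) were also highest in these tumors. The log2 change of 1425763_x_at after anti-CD40 Ab was 0.815 (SE 0.56, limma adjusted p = 0.847), and without anti-CD40 Ab replicate 3 it was 0.13 (SE 0.12). In contrast to Igha, 1425385_a_at was above all control tumors in each anti-CD40 Ab tumor. Jchain and Igha were singled out here after their values were seen.

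**Figure D4:**
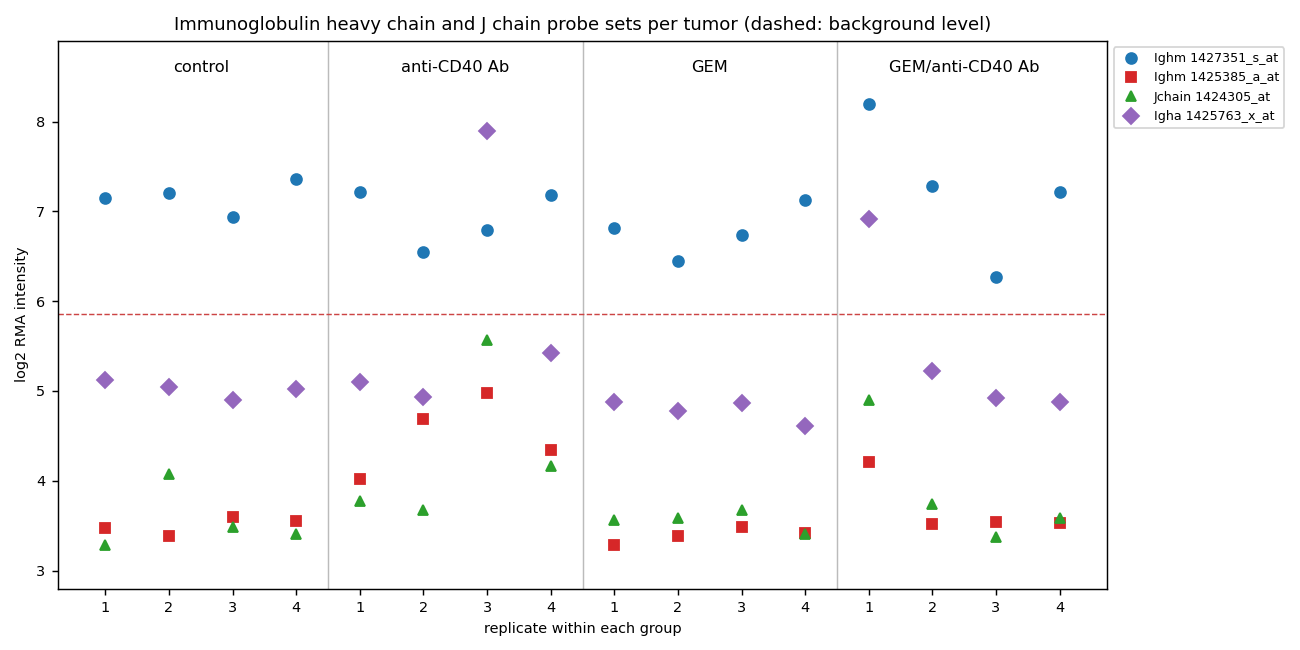
Log2 RMA intensity (y axis) of 2 Ighm probe sets, Jchain and 1 Igha probe set in each of the 16 tumors (x axis, replicates within the 4 groups), with the background level of 5.85 as a dashed line. Igha and Jchain stand highest in anti-CD40 Ab replicate 3 (7.89 and 5.57) and GEM/anti-CD40 Ab replicate 1 (6.92 and 4.90), and Ighm 1425385_a_at is above all control tumors in each of the 4 anti-CD40 Ab tumors.

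Other genes of the B lineage were read in lists, by the brightest probe set of each gene, and none of their genes passed limma's test in any comparison. Of 16 measured partners of the B cell receptor and its coreceptors, 9 were near background. Their median log2 change was 0.075 after anti-CD40 Ab, beside -0.01 over all probe sets, and 0.045 for the combination against control, beside -0.02. In the latter comparison 5 of 16 had an unadjusted p under 0.05, beside 9.58% of all probe sets, among them Blk (-0.26), Syk (0.84) and Plcg2 (0.48), with limma adjusted p-values of 0.447, 0.472 and 0.472. Syk and Plcg2, the kinase and the phospholipase that act beside Blnk, are also expressed by macrophages and other blood cells. Blk, a Src family kinase best known from B cells, was near background.

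Of 11 measured plasma cell genes, 5 were near background, and the median log2 change was 0.0225 after anti-CD40 Ab, -0.01 after GEM and 0.03 for the combination against control. Those near background were Jchain, Irf4, Tnfrsf17, Mzb1 and Derl3. Sdc1 and Xbp1 had means of 12.63 and 12.08, about as bright as the epithelial tumor genes. The median may therefore not be a reading of plasma cells, and the part of other cell types in it was not tested. Prdm1, a repressor that drives plasma cell formation and also acts in T cells, had the smallest p after anti-CD40 Ab (log2 change 0.46, SE 0.22, limma adjusted p = 0.807). Of 19 other immunoglobulin genes, 17 were near background, and the median log2 change after anti-CD40 Ab was 0.0175. The kappa variable gene Igkv8-30 had the smallest p there (0.30, SE 0.13, limma adjusted p = 0.807).

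Genes that CD40 engagement is known to induce in B cells were above background in 9 of 11 cases, but none passed limma's test, and cells other than B cells express them too. Their median log2 change against control was 0.035 after anti-CD40 Ab, -0.05 after GEM and 0.355 with the combination, and it was 0.40 for the combination against GEM. After anti-CD40 Ab alone 2 of 11 had an unadjusted p under 0.05, in opposite directions, beside 6.08% of all probe sets. Cd44, an adhesion receptor of many cell types, had a log2 change of 0.32 (SE 0.07, limma adjusted p = 0.719). Its change against control was similar after GEM alone (0.31, SE 0.09) and with the combination (0.29, SE 0.06), so it was not particular to anti-CD40 Ab. Cd83, a surface marker of activated B cells and mature dendritic cells, measured 7.84, 7.13, 6.73 and 7.72 in control and 5.98, 6.58, 6.16 and 6.70 after anti-CD40 Ab. Its log2 change of -1.0 (SE 0.26, limma adjusted p = 0.807) was the largest of the list in that comparison. For the combination against control, 6 of 11 had an unadjusted p under 0.05, beside 9.58% of all probe sets. The smallest limma adjusted p of the list in that comparison was 0.348. For the combination against GEM, 5 of 11 had an unadjusted p under 0.05, beside 11.6% of all probe sets. The smallest p-values there were those of Nfkb2 (0.40, SE 0.07), Fas (0.875, SE 0.19) and Relb (0.42, SE 0.10), with limma adjusted p-values of 0.197, 0.211 and 0.218. In the interaction 6 of 11 had an unadjusted p under 0.05, beside 5.24% of all probe sets, each with a limma adjusted p of 0.890, and of these Cd44 was below 0 (-0.34, SE 0.12) and Nfkb2, Cd83, Relb, Fas and Icosl were above it. Of 11 measured germinal center and follicle genes, 7 were near background, and the median log2 change was 0.04 after anti-CD40 Ab, -0.06 after GEM and 0.15 for the combination against control. Ccr7, the homing receptor of lymphocytes and migrating dendritic cells, had a log2 change of 0.97 (SE 0.26, limma adjusted p = 0.415) in the last of these.

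GEM/anti-CD40 Ab replicate 1 was highest of the 16 tumors for 5 of the 19 members, namely Cd79b, Ms4a1, Cd22 and the correlated Ighm pair, and so was anti-CD40 Ab replicate 1 for 5 others. The mean of the 8 genes other than Ighm was 5.04 in that combination tumor and 4.64 to 4.94 in the other 15. Macrophage genes, 9 measured and none near background, averaged 10.81 in it and 9.48 to 10.46 in the others. T cell genes, 10 measured and 6 near background, averaged 6.09 in it, beside 6.06 in anti-CD40 Ab replicate 4. The receptor partner list (6.17) and the CD40 activation list (7.91) were highest in it as well. The part of these other cell types in the values of the members was not tested.

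The group ranges of the macrophage list were 9.52 to 10.18 in control, 9.81 to 10.36 after anti-CD40 Ab, 9.48 to 10.06 after GEM and 9.95 to 10.81 with the combination. Those of the T cell list were 4.85 to 5.56, 5.21 to 6.06, 4.67 to 4.88 and 5.06 to 6.09. Both lists were lowest on average in the GEM group, as was the correlated Ighm pair. Over the 16 tumors, the correlation of 1427351_s_at was 0.88 with the mean of the receptor partner list, 0.74 with that of the macrophage list and 0.53 with that of the T cell list. Without GEM/anti-CD40 Ab replicate 1 these were 0.77, 0.57 and 0.30. For the other lists of the B lineage the correlation was lower than for the receptor partners. It was 0.73 for germinal center and follicle genes, 0.68 for CD40 activation, 0.55 for plasma cell genes and 0.38 for other immunoglobulin genes. Without the same tumor these were 0.42, 0.35, 0.28 and 0.10. For the skeletal muscle list the correlation was 0.21 over the 16 tumors and 0.43 without that tumor. Of the other immunoglobulin genes, 17 of 19 were near background, and of the receptor partners 9 of 16. The receptor partners include Syk and Plcg2, which are not particular to B cells.

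Genes most like Ighm 1427351_s_at over the 16 tumors were sought among 11647 named genes with a mean above the median of all probe sets (5.62). That filter left in 3 of the 9 members, Ighm, Cd22 and Blnk, and 2 of the 19 other immunoglobulin genes, Igha and Ighg3, so that the others could not be found by this search. They were Tm6sf1 (r = 0.90), Adap2 (0.88), Jarid2 (0.86), Rgs14 (0.85) and Cmklr1 (0.84), and without GEM/anti-CD40 Ab replicate 1 their correlations were 0.81, 0.76, 0.73, 0.77 and 0.75. Most like Cd79a were Gm17753 (0.79), Dtna (0.77), Plk5 (0.77), Spag4 (0.76) and 2610306M01Rik (0.75), and Cd79a itself lay below background in all tumors.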

How the data were processed

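Arrays of 16 tumors, 4 per group, were used, with groups taken from the labels. RMA, run by the authors, gave the deposited log2 intensities, which are rounded to 2 decimals. Its version and the arrays that entered it as one batch were not given in the sources used here. After 64 control probe sets were left out of 45101, 45037 were tested with no further filter. Names came from the platform annotation and the RefSeq table of GRCm38.p6, with 1 symbol for 34945 probe sets, several for 932 and none for 9160.

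Pairs of groups (8 arrays) were fitted without covariates in limma 3.58.1 under R 4.3.3, two-sided, with Benjamini-Hochberg adjustment at 0.05. The code was tested on simulated data. Replicates carry separate tumor numbers per the labels, except that GEM replicates 3 and 4 share one. Replicate numbers do not pair the samples.

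The members, lists and alternatives were chosen with earlier results of these data known. By rule, the text names all members, up to 3 genes with the smallest p from each list, and the 5 genes most like Ighm and Cd79a. Genes named outside the rule are stated. Alternatives were the samples fitted together, dim probe sets left out, another variance prior, array weights, 2 other scalings, other ways of choosing a gene's probe set, a replicate block, the average of GEM replicates 3 and 4, single arrays left out, 3 arrays with skin or muscle genes left out, an added log2 change of at least 1 and other background levels.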

Additional observations from a re-analysis of the deposited data

Results flagged for a closer look

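Among 76 combinations of a member and a group, 6 held 1 tumor far from the other 3, by the ratio of its gap to the group's whole range against Dixon's critical value for groups of 4. Chance gives about 1 in 20. In the GEM/anti-CD40 Ab group, Ighm 1425385_a_at was 4.21 in replicate 1 (ratio 0.971), Ighm 1427870_x_at was 6.63 in replicate 2 (ratio 0.842), Cr2 was 3.47 in replicate 4 (ratio 0.905) and Pax5 was 5.16 in replicate 1 (ratio 0.889). In control replicate 4, Ighm 1425247_a_at was 5.19 (ratio 0.955). In GEM replicate 1, Ighm 1451949_at was 4.39 (ratio 0.872). All but Ighm 1427870_x_at were near background.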

How the results depend on the processing

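The count of member probe sets that passed was 0 in every comparison under every alternative run. Members near background numbered 14, and 12 with the 75th percentile and 14 with the median of all probe sets as the level, but 7 with the median of the genes of tissues not sampled, a level added after the data were seen. The counts over all probe sets did move. For GEM/anti-CD40 Ab against control (8) they were 44 with all 16 arrays in one fit, 13 with a trended and robust prior, 5 with each gene's probe sets averaged, 0 with a replicate block, 2 without the 3 arrays with skin or muscle genes, and 0 to 11 when each array was left out. For GEM against control (0) they were 1 with dim probe sets left out, 4 with the trended and robust prior, 1 with array weights, 3 with probe sets averaged, 6 with the average of GEM replicates 3 and 4 as 1 sample, 8 without the 3 arrays, and 0 to 8 when each array was left out. Without the 3 arrays they were 3 for anti-CD40 Ab against control (0 to 2 when each array was left out) and 1 for GEM/anti-CD40 Ab against GEM (0 to 1 when each array was left out). The cause was not tested.

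The direction turned in GEM/anti-CD40 Ab against control for Cd22, at -0.0225 with scaling to the 75th percentile and -0.0144 with quantile normalization beside 0.03. When each array was left out, the log2 change there ran from -0.24 to 0.40 for Ighm 1427351_s_at, -0.22 to 0.405 for Ighm 1427329_a_at, -0.0433 to 0.11 for Cd22 and -0.01 to 0.20 for Blnk. In GEM/anti-CD40 Ab against anti-CD40 Ab it ran from -0.0117 to 0.63 for Ighm 1427351_s_at. Same-numbered arrays of different groups had correlations of their deviations from -0.27 to 0.27, over 0.1 in 10 of 24 pairs, and 1 array of 16 was most alike to its own number. The replicate block changed no call of a member. With 4 arrays per group, differences smaller than the intervals given could not be seen.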

Other observations

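Of 8 measured genes of plasmacytoid dendritic cells, which share parts of their program with B cells, 3 were near background and none passed limma's test. The median log2 change was 0.04 after anti-CD40 Ab, 0.01 after GEM and 0.09 after GEM/anti-CD40 Ab against control. Bst2, which interferon also induces in many cells, had a log2 change of 1.225 (SE 0.27, limma adjusted p = 0.211) in GEM/anti-CD40 Ab against GEM. The list averaged 7.04 in GEM/anti-CD40 Ab replicate 4, the tumor highest in skeletal muscle genes, and 6.73 in replicate 1 of that group. Cox6a2, a gene of this list, measured 9.91 in replicate 4 and 5.82 to 6.39 in all other tumors. The average of 7.04 is therefore not a reading of plasmacytoid dendritic cells alone.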
